A study of Sus scrofa with 8 samples.

Results

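The axonemal dynein heavy chains are the motor proteins that bend cilia and flagella, and 10 of their genes were read from the edited gene annotation that the authors deposited for the pig. The members were the genes of that annotation with the names DNAH5, DNAH8, DNAH9, DNAH11 and DNAH17, which encode outer arm chains, and DNAH1, DNAH2, DNAH3, DNAH6 and DNAH7, which encode inner arm chains. Each name occurred once, so the members were 10 of 30390 genes in all and 10 of the 20661 nuclear protein-coding genes with a coding model. The annotation was made for 3′ single-cell RNA sequencing (scRNA-seq) of airway submucosal glands (SMGs) dissected from the trachea of newborn pigs, 4 wild-type and 4 CFTR-/-, with 1 library per animal. CFTR is the anion channel lost in cystic fibrosis, and most cells of the surface epithelium, where ciliated cells sit, were scraped away before dissection, with a few left. The annotation gives coordinates on Sscrofa11.1 and holds no value per animal. Count matrices were not used here, so no expression level, genotype difference or library depth is given, and no length has an error across animals. Genes are not replicates of an arm, so the arms were compared by their medians, ranges and spread, with no test.

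Each dynein heavy chain has an amino-terminal tail, which holds the chains of an arm together and fixes them to the doublet microtubule, and a carboxy-terminal motor. The motor is a ring of AAA domains with a stalk that touches the neighboring microtubule, and ATP is split in the first of these domains, where a P-loop holds the phosphates. Outer arms mainly drive the speed of the ciliary beat and inner arms shape its bend. In the airway these motors move mucus, and inherited loss of several of them causes primary ciliary dyskinesia.

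The P-loop is a stretch of coding sequence that all 10 members have in common, and it is shown for every member. It was found as a glycine, any 4 residues, a glycine, a lysine and a serine or threonine in the translated coding sequence. The first column of the protein alignment where all 10 chains held this motif was taken as the P-loop of the first AAA domain. Each line gives 30 coding bases 5′ to 3′, on the strand of the gene, with the codons of the lysine and of the threonine in capitals.
DNAH5, chr16:3250009-3250038, minus strand: gctggacctgcaggaacgggcAAGACAgaa
DNAH8, chr7:34320936-34320965, plus strand: gcaggacctgcgggcactggcAAAACTgaa
DNAH9, chr12:56152097-56152126, plus strand: tcaggacctgcaggcacaggcAAGACGgag
DNAH11, chr9:90562649-90562678, plus strand: gctggtccagctggtacaggaAAAACTgaa
DNAH17, chr12:3530367-3530396, plus strand: gccggccccgccgggacgggcAAGACGgag
DNAH1, chr13:34509232-34509261, plus strand: gctggcccagctggcacagggAAAACTgag
DNAH2, chr12:53041479-53041508, plus strand: aaaggtcccgcaggcaccggcAAGACCgag
DNAH3, chr3:24987635-24987664, plus strand: gagggtccagctgggacaggcAAGACAgaa
DNAH6, chr3:60014865-60014894, minus strand: gctggtcctgctggcactgggAAAACCgag
DNAH7, chr15:99872720-99872749, minus strand: gaggggccagctggcactggaAAGACTgaa

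In each member these 30 bases lay inside a single exon. The residue was the same in all 10 chains at 9 of the 10 codons, and the codon before the motif was the exception. Of the 20 bases at the first and second codon positions 18 were the same in all members, and of the 10 bases at the last codon position 0 were. Pairs of members differed at 4 to 11 of the 30 bases, with a median of 8. DNAH17 had only G or C at the last position of the codons shown, whereas DNAH11 had only A or T there. A match in all 10 chains was also found at a later column of the alignment, and still another matched in 8 of the 10, all but DNAH5 and DNAH8. DNAH17 had a further match in its tail, at codon 153, that no other member shared.

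Among the members, outer arm chains were encoded by longer coding sequences than inner arm chains, apart from DNAH2. The coding length, which leaves out the stop codon, was read from the transcript of each gene with the longest coding sequence. Its median was 13539 bases over the 5 outer arm genes and 12465 bases over the 5 inner arm genes, a difference of 1074 bases, compared with a pooled standard deviation within the arms of 479 bases. An outer arm gene was the longer one in 23 of 25 outer and inner pairs. In the genome as a whole the median coding length was 1218 bases, and all 10 members lay above the 90th percentile of 3261 bases, as 9.99% of all protein-coding genes did. Counting the members themselves, 78 of the 20661 genes were at least as long as the shortest member.

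Among the outer arm genes, the γ-type chains were the longest. DNAH8, which is best known from the sperm flagellum, had the longest coding sequence of the members, at 14181 bases. DNAH5, the γ-type chain of airway cilia and a common site of mutations in primary ciliary dyskinesia, had 13887 bases. The β-type chains were close together in length. DNAH11, found in the proximal part of airway cilia, had 13539 bases. DNAH9, its counterpart in the distal part, had 13476 bases. DNAH17, the β-type chain of sperm, had 13377 bases. The range of the β-type chains was thus narrow, and all lay below both γ-type chains.

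Among the members, DNAH2 stood apart from the other inner arm genes. It encodes a chain of the double-headed inner arm dynein and had 13515 bases, between DNAH9 and DNAH11. DNAH1, a single-headed inner arm chain whose loss impairs the sperm flagellum, followed with 12912 bases. DNAH6 had 12465 bases. DNAH3 had 12204 bases and DNAH7, another single-headed chain, had the shortest coding sequence at 12066 bases. Without DNAH2, the ranges of the arms would not overlap among the members, although other heavy chain genes given below lie within the outer range.

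The difference in length lay before the P-loop, a point inside the motor and not its boundary with the tail. When each coding sequence was divided at the first codon of the P-loop shown above, a division chosen after values had been seen, the outer arm genes had a median of 1898 codons before it (range, 1845 to 2085) and the inner arm genes 1468 (range, 1327 to 1881). The medians differed by 430 codons, and DNAH2, with 1881 codons, was the inner arm gene within the outer range. DNAH3 and DNAH7 had the fewest codons before the P-loop, 1383 and 1327. From the P-loop to the stop codon all members were alike in length, with 2614 to 2650 codons in the outer arm and 2624 to 2695 in the inner arm. In this part the median was 62 codons lower in the outer arm (2623 against 2685 codons). This part of DNAH2, at 2624 codons, was about as long as that of the outer arm gene DNAH9, at 2623. The other inner arm genes had 2685 to 2695 codons.

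**Figure D1:**
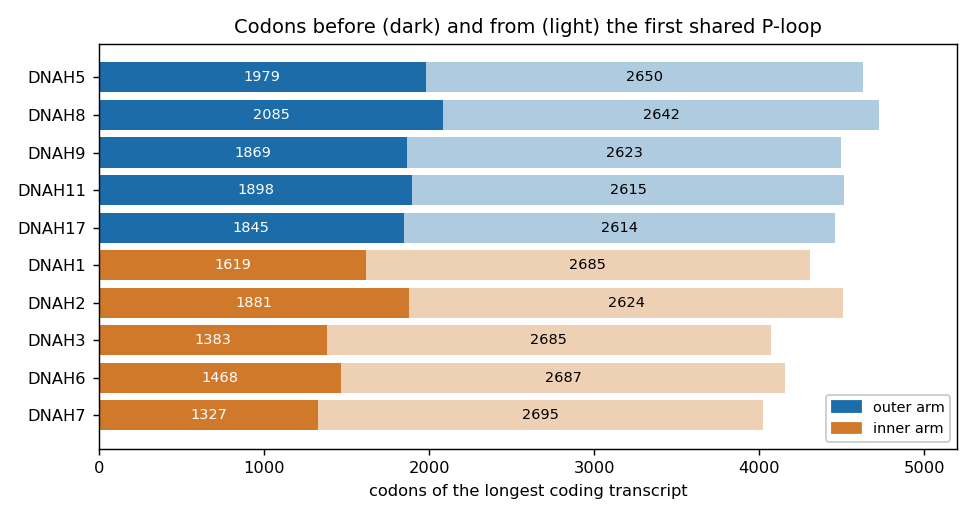
Codons of the longest coding transcript of each member (horizontal axis), divided at the first codon of the P-loop of the first AAA domain, with outer arm genes in blue and inner arm genes in orange. The part before the P-loop (dark) runs from 1327 codons in DNAH7 to 2085 in DNAH8, and the part from the P-loop on (light) only from 2614 to 2695 codons.

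All members were divided into many exons, and the arms overlapped. The exon number, again of the transcript with the longest coding sequence, had a median of 82 in the outer arm (range, 70 to 95) and 77 in the inner arm (range, 66 to 89). The medians differed by 5 exons, less than the pooled standard deviation of 9.14. Without DNAH1 or DNAH2 the difference was 10 exons, and without DNAH6 it was 9.5, both above that spread. These values count exon rows, including those split by the short gaps described below. They were not computed with those gaps closed, so they do not show that the difference in true exons exceeds its spread. All 10 members were above the 90th percentile of 22 exons, as were 9.11% of protein-coding genes, among which the median was 7. DNAH8 had the most exon rows, 95, and DNAH3 the fewest, 66. DNAH9 had 70, fewer than any other outer arm gene and fewer than the inner arm genes DNAH1 (78), DNAH2 (89) and DNAH6 (77).

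Some of these exon rows were not separated by introns. In 6 of the 10 members, consecutive exon rows were split by gaps of 2 bp, far too short for an intron, at 15 places in all. Over all protein-coding genes, 11.3% had a gap under 10 bp in this transcript, a bound chosen after values had been seen. DNAH3 had 4 such gaps, DNAH8 and DNAH17 had 3 each, DNAH5 and DNAH7 had 2 each, and DNAH2 had 1, whereas DNAH1, DNAH6, DNAH9 and DNAH11 had 0. In each member this number was equal to the number of bases that the note on the model states were inserted relative to the genomic sequence to give the inferred coding sequence. Leaving out 2 genomic bases keeps the same reading frame as adding 1. With the gaps closed, exon numbers became 79 in DNAH5, 92 in DNAH8, 80 in DNAH17, 88 in DNAH2, 62 in DNAH3 and 65 in DNAH7. The outer arm median was then 80 and the inner arm median remained 77.

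**Figure D2:**
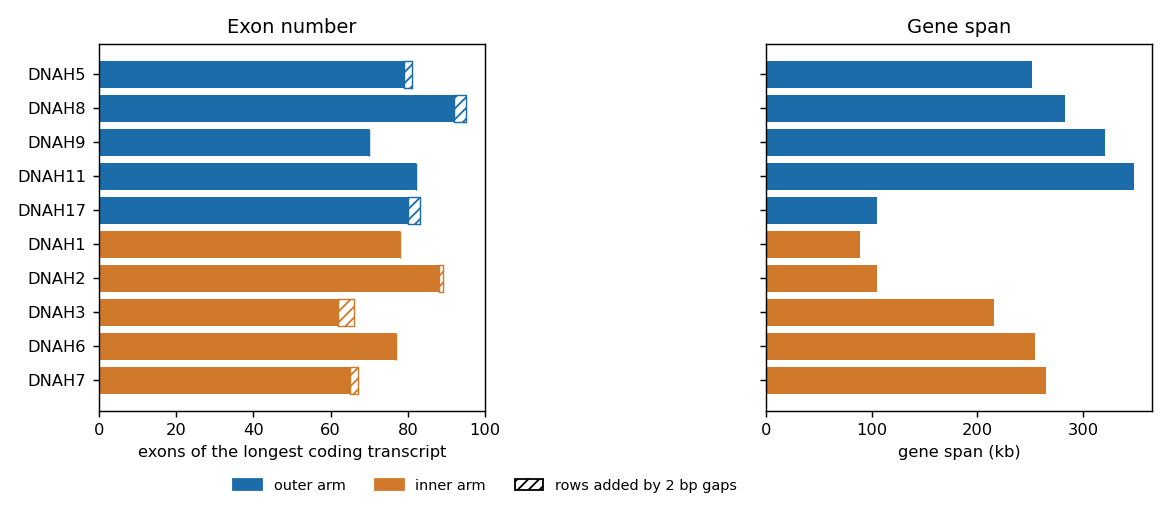
Exon number of the longest coding transcript (left) and gene span in kb (right) for each member, with outer arm genes in blue and inner arm genes in orange. Hatched ends are the exon rows added by 2 bp gaps, between 1 in DNAH2 and 4 in DNAH3, and the bars of the arms overlap in both panels, with DNAH17, DNAH1 and DNAH2 having the shortest spans.

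The sequence around 4 of these gaps is shown, with the 2 bases that the exon rows leave out in capitals. The DNAH17 and DNAH5 sites shown lie in runs of a single base, and the DNAH3 site does not.
DNAH17 site 1, exon 11, chr12:3499498-3499499 left out, plus strand: cgatgggaacatccCCccatccacaaaaat
DNAH17 site 2, exon 44, chr12:3542526-3542527 left out, plus strand: ctgggccttcggggGGccatgttccaggac
DNAH5 site 1, exon 54, chr16:3193956-3193957 left out, minus strand: gatggaggacctaaAAatttgtatagaaca
DNAH3 site 1, exon 18, chr3:24954944-24954945 left out, plus strand: gtgggtgacgacctACagtttagcatcaaa

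A run of at least 4 equal bases touched the gap at 5 of the 15 sites in the members, and at 22.7% of the 3597 gaps under 10 bp over all protein-coding genes. Gaps were about as dense in the members as elsewhere, at 11.4 per 100 kb of coding sequence compared with 10.2 per 100 kb in the other genes. Of the 68 other genes with a coding sequence at least as long as that of the shortest member, 36 (52.9%) had a gap. Most sites lay far from the 3′ end that this kind of library sequences. The median distance to the 3′ end was 6496 exon bases, and the nearest site, in DNAH8, was 498 bases from it. Whether reads were lost at any of these gaps was not tested.

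The reading frame was open through every coding sequence but those of DNAH8 and DNAH3. All 10 began with ATG, had a length divisible by 3 and were followed by a stop codon. In DNAH8 the genomic sequence held TGA at codon 733, in exon 14 (chr7:34242259-34242261, plus strand), shown here in capitals.
DNAH8 codon 733: agctactaagaagTGAgtatcctgtttata
The reference annotation states that this protein was modified at a genomic stop codon. In DNAH3 the codon read as TAG was number 833, and it was joined across site 1 above, from the base before and those after the 2 that were left out. The bases of this codon were thus not contiguous in the genome, unlike those of the stop codon in DNAH8.

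The ranges of gene span in the arms overlapped. The median was 282 kb in the outer arm (range, 105 to 348 kb) and 216 kb in the inner arm (range, 89.0 to 265 kb), and the difference of 66598 bp was less than the pooled standard deviation of 89405 bp. It was above that spread without DNAH6 or DNAH7 (122263 bp each), without DNAH3 (102984 bp) and without both DNAH8 and DNAH17 (105391 bp). The longest spans were those of DNAH11 (chr9:90420044-90768327, plus strand) with 348 kb and DNAH9 (chr12:56045079-56366327, plus strand) with 321 kb. DNAH8 (chr7:34197185-34479640, plus strand) covered 282 kb and DNAH5 (chr16:3114267-3366189, minus strand) 252 kb. In the inner arm, DNAH7 (chr15:99722278-99987348, minus strand) covered 265 kb, DNAH6 (chr3:59859858-60114274, minus strand) 254 kb and DNAH3 (chr3:24911160-25127017, plus strand) 216 kb. These 7 genes were above the 90th percentile of gene span, 133882 bp, which 10.0% of protein-coding genes passed.

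The remaining members were compact and came from both arms. DNAH17 (chr12:3485166-3590325, plus strand) and DNAH2 (chr12:52982217-53086744, plus strand) each covered 105 kb, and DNAH1 (chr13:34455154-34544147, plus strand) 89.0 kb. Their median introns were 753 bp in DNAH17, 559 bp in DNAH1 and 343 bp in DNAH2, compared with 2061 to 2834 bp in the other 7 members and a median of 1398 bp over all protein-coding genes. Their spans were also richer in G and C, with 52.6 to 59.7% compared with 36.8 to 46.9% in the other 7. At the last codon position the share of G and C was 77.3 to 87.4% in the compact genes and 39.6 to 73.0% in the others. These ranges did not overlap. Their longest introns were not all short, since that of DNAH1 was 16.6 kb and that of DNAH2 15.2 kb, within the 13.8 to 19.7 kb of the other 7, whereas the longest intron of DNAH17 was 7.13 kb.

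A single exon of DNAH3 stood out. Exon 53 of 62 (chr3:25095838-25097976) spanned 2139 bp, 17.5% of the coding bases of the gene, and 3 of its 4 gaps of 2 bp lay in it. The median coding exon of DNAH3 was 155 bp. Over the part of the alignment that this exon covers, the other 9 members each had 11 to 15 introns and DNAH3 had 0. The next longest coding exons of the members were exon 41 of DNAH7, with 872 bp, and exon 20 of DNAH9, with 871 bp. In DNAH2 no exon held more than 240 coding bases.

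The places where introns cut the coding sequence grouped the outer arm genes into 2 sets and left the inner arm genes apart. Coding introns were placed on the protein alignment, and an intron was counted as shared when it fell in the same column and the same phase of the codon. The members had 759 coding introns at 540 distinct positions, of which 400 were found in 1 member only and 0 in all 10. The highest number of members at a single position was 7.

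Shared introns were most common among the β-type chains. DNAH11 and DNAH17 shared 61, which was 75.3% of those of DNAH11 and 77.2% of those of DNAH17. DNAH9 shared 53 with DNAH17 (76.8 and 67.1% of each) and 53 with DNAH11 (76.8 and 65.4% of each). The γ-type chains DNAH5 and DNAH8 shared 49, or 62.8 and 53.8% of each. In the remaining 41 pairs the shared introns made up between 0 and 12.9% of the introns of both genes, with a median of 3.59%. Both sets belong to the outer arm, yet between them few introns were shared. DNAH5 and DNAH9, for example, had 4 in common, and 2 positions were common to all 5 outer arm genes.

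Sharing in the inner arm was low even where the proteins were similar. DNAH3 and DNAH7 had the highest identity among inner arm chains, 53.6% of 3971 aligned residues, and shared 8 introns, 13.3 and 12.5% of each. By comparison, DNAH9 and DNAH11 were 58.1% identical, DNAH5 and DNAH8 62.2%, and DNAH9 and DNAH17 63.9%. DNAH1 and DNAH7 were 44.8% identical and had 1 intron in common, and DNAH2 and DNAH7, at 37.0%, had 0. The share of introns that no other member had was 73.3 to 84.9% in the inner arm genes, with the highest value in DNAH2. In the outer arm genes it was 17.4 to 41.8%, with the highest value in DNAH8. Only the members were aligned, and DNAH10, DNAH12 and DNAH14 were not, so these shares depend on the choice of genes.

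**Figure D3:**
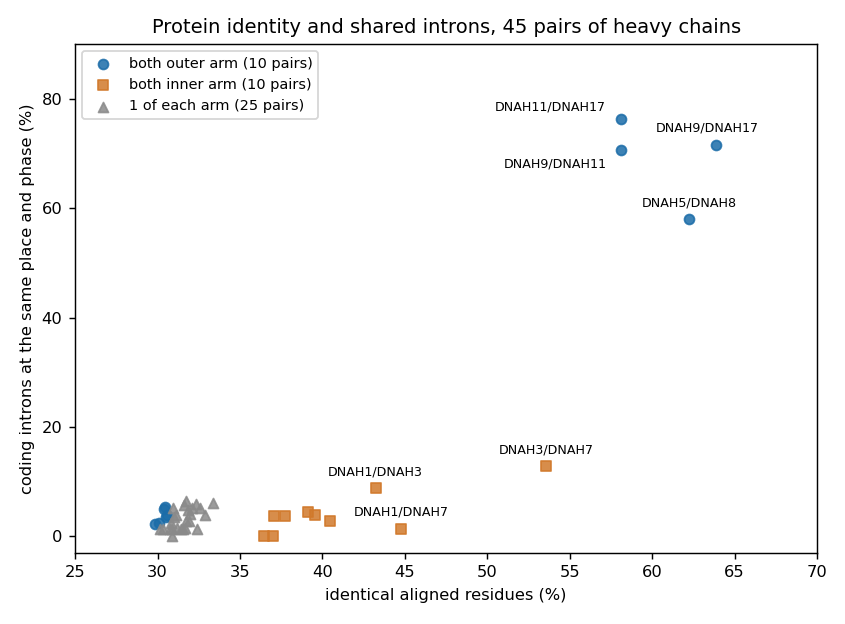
Shared coding introns, as a percentage of the introns of both genes (vertical axis), against the percentage of identical aligned residues (horizontal axis) for the 45 pairs of members. The 4 pairs within the γ-type and β-type sets lie at 58.0 to 76.2% shared introns, and DNAH3 with DNAH7 lies at 12.9% although 53.6% of their residues are identical.

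Identity itself was higher among inner arm chains than among chains of different arms. The median was 39.3% over the 10 inner pairs (range, 36.5 to 53.6%), 30.6% over the 10 outer pairs (range, 29.8 to 63.9%) and 31.6% over the 25 pairs of different arms (range, 30.2 to 33.4%). The outer arm thus held both the most and the least similar pairs. Identity was lower before the P-loop than from it on. Before the P-loop the median identity was 23.6% in outer pairs, 27.6% in inner pairs and 22.1% in pairs of different arms, and from the P-loop on it was 35.6, 44.98 and 36.5%. Pairs share members, so these values are not independent.

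**Figure D4:**
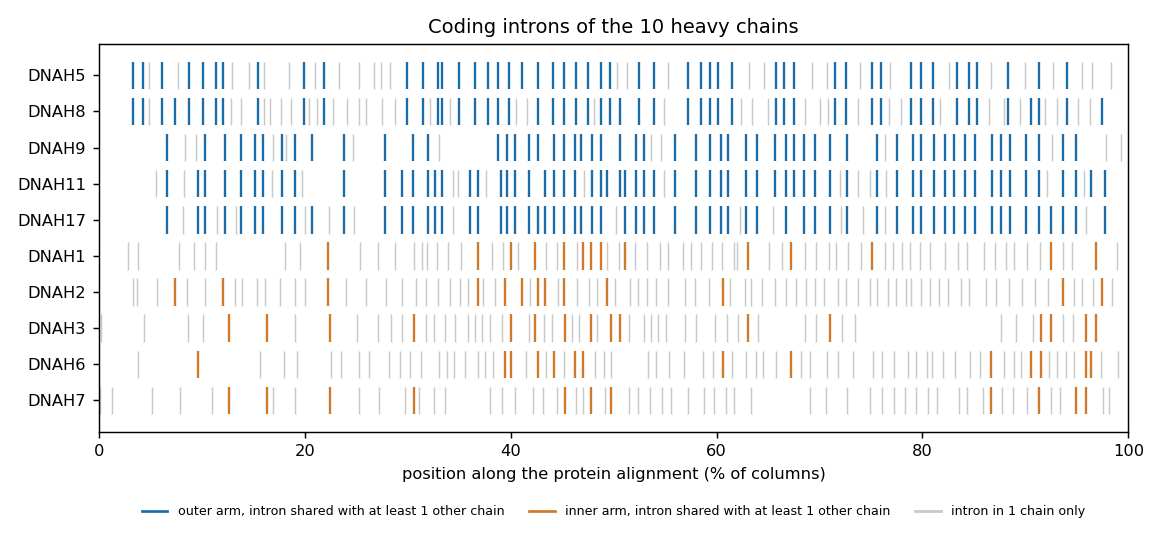
Coding introns of each member (vertical lines) by position along the protein alignment, in percent of its columns. Introns in the same column and phase as one of another member are colored (outer arm blue, inner arm orange) and introns of 1 member only are gray, so DNAH9, DNAH11 and DNAH17 are mostly blue, the inner arm genes mostly gray, and DNAH3 has a blank stretch from 73.5 to 87.6%.

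Coding introns lay mainly between codons in all members but DNAH3. Phase 0 introns, which lie between 2 codons, were 30 of the 60 coding introns in DNAH3 and made up 60.5 to 74.7% in the other members, with the highest value in DNAH17. All 759 coding introns began with GT or GC and ended with AG. GC was rare and was most frequent in DNAH11, with 5 of 81 introns.

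The number of transcripts differed among members, and the arm medians were equal. More than 1 transcript was listed for 4 of the 10 members, DNAH1, DNAH6, DNAH9 and DNAH11, as for 50.5% of all protein-coding genes. The median was 1 in each arm, with 23 transcripts over the outer arm genes and 10 over the inner arm genes. Without any 1 of DNAH5, DNAH8 and DNAH17 the difference of the medians became 4.5, and without both DNAH8 and DNAH17 it became 9, compared with a pooled standard deviation of 3.69. DNAH9 and DNAH11 had 10 transcripts each, DNAH6 had 5 and DNAH1 had 2. These 4 genes were the ones without a gap of 2 bp, and the 6 with gaps each had a single transcript. Over all protein-coding genes, 1.16% of those with a gap under 10 bp and 56.8% of those without had more than 1 transcript, and the part of the corrected models in the transcript number of the members was not tested.

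The transcripts of DNAH11 differed in length and at both ends. Of its 10 coding transcripts, 8 had coding lengths from 12972 to 13539 bases, and the remaining variants, X9 and X10, had 40 exons and a coding length of 6237 bases because they began far inside the gene. At the 3′ end, variants X1 and X3 continued for 975 bases past the stop codon, and the other 8 transcripts ended at the stop codon, with a 3′ UTR of 0 bp. The transcripts of DNAH9 also differed at both ends. Its 10 transcripts, of which 8 were coding, had 6 different 5′ ends and 4 different 3′ ends up to 25584 bp apart, and their 3′ UTRs ranged from 222 to 1403 bp. In DNAH6 variants X3 and X5 ended early, with coding lengths of 11547 and 10743 bases, while X1 reached 12465 bases. Its 3′ ends lay up to 32659 bp apart and 2 of its 5 transcripts had no 3′ UTR. The 2 transcripts of DNAH1 had the same 3′ end.

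The UTRs varied more among members than between arms. The 3′ UTR, which is the part nearest to the sequenced end, was counted in exon bases past the stop codon, in whichever coding transcript reached farthest downstream. Its median was 285 bp in the outer arm (range, 148 to 1922 bp) and 210 bp in the inner arm (range, 47 to 2559 bp), and the difference of 75 bp was below the pooled standard deviation of 920 bp. It was 765 bp with the longest 3′ UTR of any coding transcript, and also without DNAH8 and DNAH17. When any of DNAH1, DNAH2 or DNAH6 was left out, the outer arm median became the lower one, with differences of -361.5 to -345 bp. Both medians were below the 716 bp of all protein-coding genes.

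The order of the 3′ UTRs did not follow the arms. DNAH7 had the longest, with 2559 bp, and DNAH5 had 1922 bp. DNAH3 had 1083 bp and DNAH11 975 bp, so that these 4 members were above the median of all genes in this measure. DNAH9 followed with 285 bp, DNAH2 with 210 bp, DNAH17 with 194 bp, DNAH6 with 177 bp and DNAH8 with 148 bp. This order depends on the transcript, since another coding transcript of DNAH9 had 1403 bp and 8 of the 10 of DNAH11 had 0 bp. DNAH1 had the shortest, with 47 bp, and was the only member under 100 bp, as were 15.7% of protein-coding genes.

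The 5′ UTR was longest in DNAH1. Its variant X1 had 8098 bp before the start codon, a length that 25 protein-coding genes, DNAH1 included, reached or passed, and its variant X2 had 0 bp. DNAH11 had 3247 bp, DNAH5 1233 bp and DNAH8 982 bp. The other members had 111 to 557 bp in the transcript that starts farthest 5′, compared with a genome-wide median of 185 bp. Among their other transcripts, variant X9 of DNAH9 had 5025 bp and variant X4 of DNAH6 828 bp. The outer arm median was 982 bp and that of the inner arm 353 bp, and the difference of 629 bp was below the pooled standard deviation of 2620 bp.

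**Figure D5:**
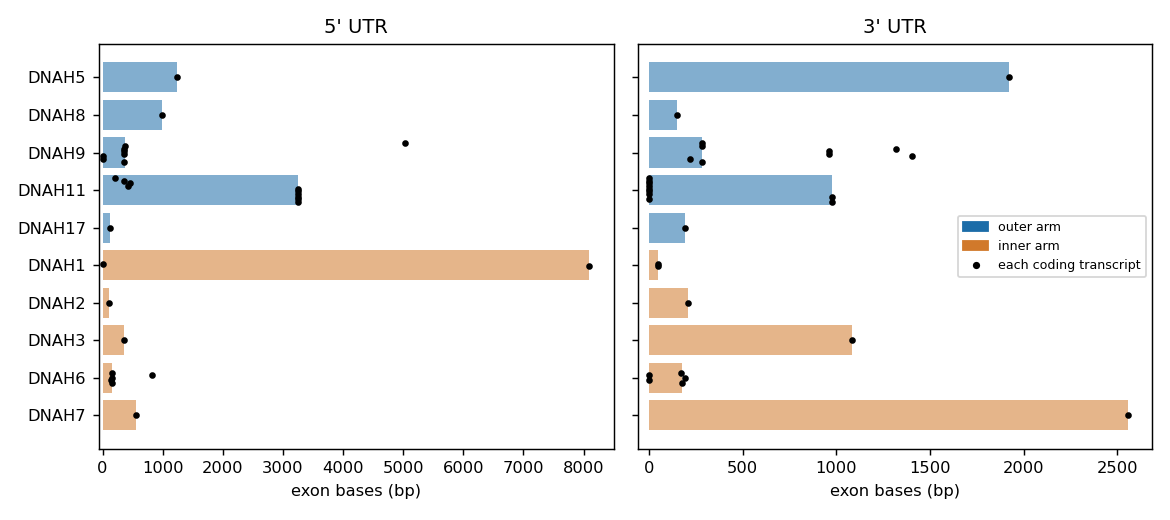
Length in bp of the 5′ UTR (left) and the 3′ UTR (right) of each member, with outer arm genes in blue and inner arm genes in orange. Bars give the transcript that starts farthest 5′ or ends farthest 3′ and points give every coding transcript, so that DNAH1 reaches 8098 bp at its 5′ end and 47 bp at its 3′ end, and most points of DNAH11 lie at 0 bp in the right panel.

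A poly(A) signal lay near the 3′ end of 6 of the 10 members. AATAAA or ATTAAA, searched on the strand of the gene in the last 50 bp, occurred before the 3′ ends of 60.9% of all protein-coding genes. Only the end of the transcript that reaches farthest 3′ was searched in the members, so other ends of DNAH6, DNAH9 and DNAH11 were not. AATAAA began 22 bp before the end in DNAH5, 33 bp before it in DNAH6 and 37 bp before it in DNAH7. ATTAAA began 24 bp before the end in DNAH1, 23 bp in DNAH17 and 36 bp in DNAH8. Neither hexamer was in this window in DNAH2, DNAH3, DNAH9 or DNAH11. Thus DNAH1, with the shortest 3′ UTR, had the hexamer, and DNAH3 and DNAH11, with longer ones, did not.

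None of the 10 members shared exon bases with another gene on the same strand, as 3.34% of all protein-coding genes did. On either strand 5 members shared exon bases, compared with 19.9% of protein-coding genes, and in each case the other gene was on the opposite strand. For DNAH11 and DNAH7 the overlap covered the 3′ end. CDCA7L shared 1223 exon bases with DNAH11, among them all 975 bases of its 3′ UTR and all of its last 1000 exon bases. SLC39A10, a zinc transporter, shared 2344 exon bases with DNAH7, 91.6% of its 3′ UTR and all of its last 1000 exon bases. DNAH17 shared 182 exon bases with PGS1, a gene of mitochondrial phospholipid synthesis, all before its stop codon. The long noncoding RNA genes LOC102163370 and LOC110256110 lay opposite to exons inside DNAH9 (122 bases) and DNAH2 (470 bases), away from their last 1000 exon bases. Cell Ranger by default counts reads on the sense strand of a gene. The setting used for these libraries is not given in the sources used here, and its effect on these genes was not tested.

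The distance to the next gene downstream on the same strand ranged widely. KDM6B, a histone demethylase gene, began 327 bp beyond the end of DNAH2, and LOC110261514, a long noncoding RNA gene, 3.85 kb beyond DNAH8. PHF7 lay 9.67 kb beyond DNAH1. For the other members the distance was 24.5 kb or more, up to 1592 kb between DNAH5 and CTNND2. BAP1, a deubiquitinase gene on the opposite strand, lay 422 bp beyond the end of DNAH1.

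The authors had not altered any of these models. The exon rows and coding segments of all 10 members were the same, base for base, as those of the RefSeq annotation used for comparison. None of the 10 was in the authors' list of edited genes. DNAH8 and DNAH17 were not among the names in the part used here of the list of genes whose read alignments the authors checked, and the other 8 members were.

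The evidence noted on the models was unequal. For the transcripts measured here, RNA sequencing reads covered 92% of the annotated feature in DNAH7, 97 to 98% in DNAH3, DNAH5, DNAH8, DNAH11 and DNAH17, and 99 to 100% in the others. Samples with support for all introns were noted for at least 1 transcript of each multiple-transcript member and for DNAH2, DNAH3 and DNAH7. For DNAH5, DNAH8 and DNAH17, and for variant X1 of DNAH1, which gave the coding length and the long 5′ UTR of that gene, the notes named 0 such samples. Up to 17 samples supported all introns of a transcript in DNAH11.

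Other heavy chain genes gave a frame for these values. DNAH10, which pairs with DNAH2 in the double-headed inner arm dynein, had a coding length of 13776 bases, above that of DNAH2. DNAH12 had 11877 bases, less than any member, and DNAH14 had 13701. DNAH10 and DNAH14 thus lay within the range of the outer arm members. With DNAH10, DNAH12 and DNAH14 added to the inner arm, the difference of the coding length medians was 850.5 bases. The cytoplasmic chains DYNC1H1, which carries cargo along microtubules, and DYNC2H1, which works inside cilia in retrograde transport, had 13935 and 12939 bases. None of the 3 axonemal genes had a gap of 2 bp, and each cytoplasmic gene had 1. DNAH14 had a 3′ UTR of 22 bp and DYNC2H1 one of 89 bp.

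Genes listed for smaller arm subunits, docking and assembly had far shorter coding sequences, and their 3′ UTRs overlapped those of the members in length. Of 32 listed genes for intermediate and light chains, docking proteins and assembly factors, 31 were found, and DNAAF3 was not found by that name. Their median coding length was 1593 bases (range, 267 to 3192 bases) and their median exon number 9, with gaps closed. The median 3′ UTR was 487 bp (range, 99 to 5136 bp), and TCTEX1D2, a light chain gene, was the only one under 100 bp, with 99 bp. More than 1 transcript was listed for 18 of the 31 genes and a gap for 2. The median 3′ UTR was 334 bp for the 14 intermediate and light chains, 510 bp for the 7 docking and ruler proteins and 530 bp for the 10 assembly factors. All 31 had the same exons as in RefSeq.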

How the data were processed

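The authors made 3′ scRNA-seq libraries with 10x Genomics v2 chemistry from 8 animals and used Cell Ranger 3.0.2 with Sscrofa11.1, per the submitters' processing notes. The deposited file used here is their edited gene annotation, made from RefSeq. Its deposited values are start and end coordinates counted from 1, with no normalization. The reference used here for comparison was RefSeq Annotation Release 106. No sample entered a comparison, since 1 annotation served all 8 libraries, and the depth of the libraries is unknown.

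Exon number and coding length came from the coding transcript with the longest coding sequence, the 3′ UTR from the one that ends farthest 3′ and the 5′ UTR from the one that starts farthest 5′. Measures were computed over all protein-coding genes, and the members' counts are given beside that background. The models were compared with RefSeq on the same build. Coding sequences were read from the genome (samtools 1.23.1, pysam 0.24.0), translated (Biopython 1.88) and aligned with MAFFT 7.526 with its automatic choice of method. No protein table was used. Identity was counted over columns where both chains had a residue. Shares of introns of both genes are 2 times the shared number over the sum of both numbers. Python 3.11.15, numpy 2.4.6, scipy 1.17.1 and matplotlib 3.10.9 were used. The measures were tested on simulated gene models.

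The members, gene lists and measures were chosen with earlier results of these data known. The genes named are the 10 members, 5 other heavy chains, and genes that overlap a member or lie nearest downstream. Listed genes for smaller arm subunits, docking and assembly are named where absent, altered or with a 3′ UTR under 100 bp. Alternatives changed the transcript, the set of genes in each arm, the background, the bounds and the alignment.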

Additional observations from a re-analysis of the deposited data

How the results depend on the processing

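No paired analysis was possible because the deposited annotation holds no value per animal. Of 133 alternative values, 121 were not reversed and moved by less than the spread within the arms or pairs, or, for counts of members, by no more than 1.5 times. Alternatives with the RefSeq models could not differ, since those models were the same. A difference of 0 could not be called reversed, and several spreads were wider than the differences, so this count does not measure robustness. The transcript number, with a difference of 0 between the arm medians, became 9 when DNAH8 and DNAH17 were left out of the outer arm, and ranged from -0.5 to 4.5 when each member was left out in turn, with the highest values without DNAH5, DNAH8 or DNAH17. The 3′ UTR difference of 75 bp ranged from -361.5 to 420 bp when each member was left out and was -361.5, -345 and -361.5 bp without DNAH1, DNAH2 and DNAH6. When each member was left out, the coding length difference ranged from 850.5 to 1248 bases, the exon difference from 4.5 to 10, the span difference from 47318.5 to 122263 bp and the 5′ UTR difference from 321 to 754.5 bp. The number of members with a 3′ UTR under the bound was 4 at 200 bp, beside 24.2% of all protein-coding genes, and 1 at 50 bp, beside 11.7%. Members with a poly(A) hexamer numbered 3 with AATAAA only (49.8% of all genes) and 3 in the last 30 bp (53.4%). Members sharing exon bases on either strand numbered 5 (19.9% of all genes), as did those whose spans overlapped another gene on either strand (29.4%). Closing the gaps under 10 bp, an alternative chosen after seeing the data, gave an exon difference of 3 with all members kept. The exon differences with each member left out were not computed with the gaps closed. Over all settings for shared introns, among them a local pairwise alignment with iterative refinement chosen after seeing the data, the γ-type and β-type pairs shared at least 58.0% and the other 41 pairs at most 20.97%. The depth of these libraries did not enter these values, but the RNA sequencing evidence noted on the models was unequal. The lengths are those of the annotation, not of transcripts measured in the glands.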
